A study of Homo sapiens with 21 samples.

Results

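The nucleolar ribosome biogenesis genes described here are 49 genes for proteins that make ribosomal RNA, modify and cut it, and assemble it into ribosomal subunits. They were taken by symbol from a list of members, through the Ensembl identifiers of the count tables, and all 49 were found among the 60668 gene rows. By role they are 3 core proteins of the box C/D small nucleolar ribonucleoproteins (snoRNPs), 4 core proteins of the box H/ACA snoRNPs, 1 snoRNP chaperone, 6 nucleolar RNA-binding and regulatory proteins, 3 subunits of RNA polymerase I, 14 members of the small subunit processome, 4 late small subunit factors and 14 large subunit assembly factors. All 49 passed the filter on low counts in both tables, so none was lost to it.

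HCC1806 is an established line of triple-negative breast cancer cells, that is, cells classed by the absence of the estrogen and progesterone receptors and of HER2 amplification. The cells were grown in 2D culture, and polyA-selected RNA of 21 libraries was sequenced, 3 libraries in each of 7 groups. One count table holds the libraries labelled 3xSR (labelled as joint overexpression of the splicing factors SRSF2, SRSF3 and SRSF7), MYC-OE (overexpression of MYC) and 3xCTL (their control). The other holds SRSF2-OE, SRSF3-OE and SRSF7-OE, each labelled as overexpressing 1 of these splicing factors, and 1xCtrl, a control with a single plasmid. The labels give neither the vector, its promoter and the level of the protein nor whether a group is a clone or a pool, and MYC-OE was set against 3xCTL, which may not carry the same vectors. Nothing in the labels says that replicates came from separate cultures, so the p-values measure the spread between these libraries, which may be technical.

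Ribosome production starts in the nucleolus, where RNA polymerase I transcribes a long precursor ribosomal RNA. SnoRNPs guide the methylation and pseudouridylation of that precursor, the small subunit processome folds and cleaves its leading part, and further sets of factors build the large subunit around the rest. MYC is known to raise many of these genes, through E-boxes such as CACGTG that it binds as a dimer with MAX, and tumour cells with high MYC are known for enlarged nucleoli.

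The libraries held between 143269192 and 303323552 counts, and the genes described here took 0.614% to 0.812% of them. The overexpressed genes were checked first. Every adjusted p below is from edgeR's quasi-likelihood test with Benjamini-Hochberg adjustment over all genes tested, and values after ± beside a log2 fold change are standard errors (SE). MYC stood at 96.6, 91.00 and 92.6 CPM (counts scaled to a common library size) in the 3xCTL libraries, 156, 156 and 159 in 3xSR and 171, 170.0 and 181 in MYC-OE, so both groups lay above their control, by 0.75 and 0.90 on the log2 scale. In the second table MYC was called higher in SRSF3-OE (0.26 ± 0.0575 (SE), adjusted p = 0.00406, lost with total-count scaling or no filter and without any library but 1xCtrl replicate 2) and SRSF7-OE (0.27 ± 0.0574 (SE), adjusted p = 0.00608, lost without 1xCtrl replicate 1 or 3 or SRSF7-OE replicate 1 or 3), and not in the libraries labelled SRSF2-OE (0.12 ± 0.0574 (SE), adjusted p = 0.165). SRSF3 rose in SRSF3-OE by 0.49 and in 3xSR by 0.31 on the log2 scale, and SRSF7 rose in SRSF7-OE by 0.26 and in 3xSR by 0.44. Both also rose in the libraries labelled SRSF2-OE without overlap, SRSF3 by 0.30 and SRSF7 by 0.24, so these rises were not limited to the groups labelled for them. SRSF2 went against its labels. Its log2 fold change was -0.16 ± 0.064 (SE), adjusted p = 0.098 in the libraries labelled SRSF2-OE and -0.064 ± 0.0516 (SE), adjusted p = 0.389 in those labelled 3xSR, so the names SRSF2-OE and 3xSR are used as labels only. Of the markers of a basal epithelial cell, EPCAM, CDH1, KRT5, KRT6A, KRT14 and KRT17 were all detected in every library, their summed level between 4072 and 5207 CPM. PGR had a median of 0 CPM, while ESR1 (6.49 to 11.5 CPM) and ERBB2 (99.6 to 184 CPM) were detected. The 5 fibroblast markers summed to 46.7 to 48.7 CPM in 3xCTL, 22.4 to 25.3 in 3xSR and 18.5 to 18.8 in MYC-OE, and to 27.8 to 32.1 in 1xCtrl, 15.7 to 16.2 in SRSF2-OE, 14.8 to 16.3 in SRSF3-OE and 20.3 to 23.5 in SRSF7-OE. Each control lay above its other groups without overlap. Most of the sum was LUM and COL1A1, with COL1A2 at 0.315 CPM or less. The leukocyte and endothelial markers summed to at most 2.79 and 1.28 CPM, and their part in the results was not tested. In such bulk samples a smaller share of cells with a transcript and less of it per cell cannot be told apart, and CPM are shares of a library, not amounts per cell.

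In each control, replicate 2 stood apart from the other libraries, in a way that ran with base composition. The chi-square divided by its degrees of freedom was 108.2 and 82.91 for the pairs with 3xCTL replicate 2 and 25.56 for the other pair. In 1xCtrl it was 193.8 and 275.1 with replicate 2 and 26.23 for the other pair. Across 22663 genes the deviation of 3xCTL replicate 2 from its group mean had a Spearman correlation of -0.512 with transcript GC content. Across 23797 genes 1xCtrl replicate 2 had 0.593. Replicates 1 and 3 of 1xCtrl had -0.346 and -0.512, as deviations from a mean that includes replicate 2. The members BOP1, NOC4L and MYBBP1A, chosen after their values were seen, had the largest SD relative to the mean in both controls. BOP1, which works with PES1 and WDR12 in large subunit maturation, was at 87.3, 49.2 and 75.8 CPM in 3xCTL and 41.96, 97.9 and 29.3 in 1xCtrl. Counts are given with and without these libraries wherever leaving 1 out moved them.

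The promoters of the members were read for the E-box, because these genes are known as MYC targets and MYC was raised in both MYC-OE and 3xSR. In RefSeq's GRCh38.p14 table of 300-base promoter windows, 250 bases before to 50 after a gene's start, 40 of the 49 members had an entry. The letters CACGTG, the same on both strands, were found in 16 of these 40 windows, 40.0%, against 7.26% of all 35116 windows, 9.53% of the 13668 windows of genes tested in the first table and 25.5% of 98 windows of other ribosome biogenesis genes. In 11 of the 16 members the first match began after the start. With the bases before the start alone the share was 10% of members (4 of 40) and 6.34% of all windows. It was 8.38% for genes tested in the first table and 15.3%, above the members, for the other ribosome biogenesis genes. The 8 members shown have an E-box and are among those named for their change. Each stretch is 30 bases of the strand with the same sense as the transcript, 5′ to 3′, with the E-box in capitals. In order they lie at chr19:39846356-39846385 (minus strand), chr12:6568242-6568271 (minus), chr22:30591880-30591909 (minus), chr17:4555340-4555369 (minus), chr6:41921515-41921544 (plus), chr1:19251807-19251836 (plus), chr2:68157885-68157914 (plus) and chr9:4792936-4792965 (plus).
FBL: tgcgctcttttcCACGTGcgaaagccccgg
NOP2: gctaggtccggattgCACGTGgagggccgc
PES1: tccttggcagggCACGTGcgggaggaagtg
MYBBP1A: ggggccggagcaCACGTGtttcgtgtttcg
BYSL: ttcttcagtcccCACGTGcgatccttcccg
MRTO4: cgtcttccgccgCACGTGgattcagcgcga
PNO1: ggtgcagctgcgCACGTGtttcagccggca
RCL1: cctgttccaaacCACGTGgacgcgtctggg
In these 8 the E-box began between base 5 (RCL1) and base 36 (NOP2), counted from the annotated start as base 1. A match is a description of these letters and no measure of binding.

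In the 3xCTL libraries the members' transcripts spanned a wide range of levels. NPM1 (nucleophosmin) was highest at 485 ± 62.3 CPM per kilobase of transcript (SD, n = 3), followed by NCL (nucleolin) at 276 ± 21.2, NOP56 at 172 ± 9.71, NOP10 at 145 ± 2.38 and FBL (fibrillarin) at 137 ± 5.14. NOP10 and FBL differed by more than the SD of either. At the low end were WDR12 at 6.35 ± 0.675, POLR1A at 3.55 ± 0.0623 and RCL1 at 3.23 ± 0.108 CPM per kilobase. The order in 1xCtrl was close to this one at both ends. NPM1 (410.2 ± 38.6), NCL (228 ± 6.76) and NOP56 (189.5 ± 7.54) were again the 3 highest, and POLR1A (2.82 ± 0.116) and RCL1 (2.79 ± 0.275) the 2 lowest, the last pair within their SD. Between the controls, each scaled within its own table and not tested against each other, the members' median log2 ratio of 1xCtrl to 3xCTL was -0.19, with 43 of 49 lower in 1xCtrl. In 18 of them no library of one control overlapped the other, where 14.6% of the 22867 genes tested in both tables lay lower in this way, and 1 member lay higher without overlap, against 18.4%.

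**Figure D1:**
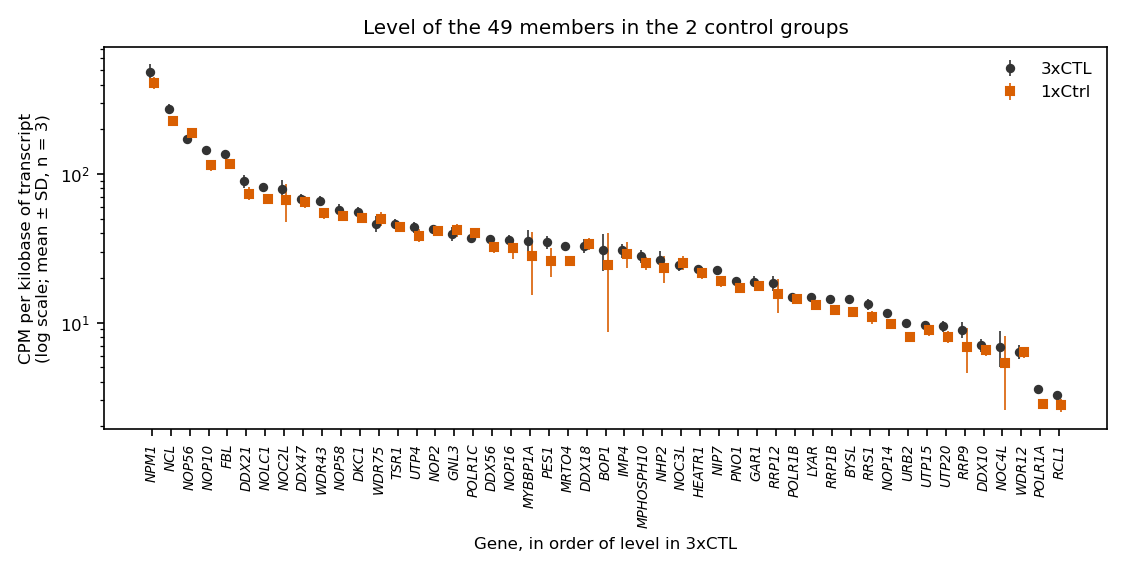
Mean level of the 49 members in the 3xCTL (black circles) and 1xCtrl (orange squares) libraries, in CPM per kilobase of transcript on a log scale, with the SD over 3 libraries as bars. NPM1 is at 485 and RCL1 at 3.23 CPM per kilobase in 3xCTL, and BOP1, MYBBP1A and NOC4L have the longest bars in 1xCtrl.

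Summed over all 49 members, the level was highest in SRSF3-OE. The 3 SRSF3-OE libraries held 8598, 8029 and 8387 CPM in all, the libraries labelled SRSF2-OE 7604, 7571 and 7168, and 1xCtrl 6031, 5992 and 6230.2. Both of these groups lay above every 1xCtrl library, whereas SRSF7-OE, at 6167, 6492 and 6296 CPM, overlapped 1xCtrl. In the first table the sums overlapped, with 6962, 7223 and 6457 CPM in 3xCTL, 7309.8, 6784 and 6957 in 3xSR and 6971, 6749 and 6978 in MYC-OE.

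Among the groups labelled for 1 splicing factor, the members were called most often in SRSF3-OE, next in SRSF2-OE and least in SRSF7-OE. In SRSF3-OE 43 of the 49 members were called higher at an adjusted p under 0.05 and 0 lower. Of the 24362 genes tested, 15.0% were called higher and 14.1% lower. The members' median log2 fold change was 0.45 (range 0.053 to 0.69) and that of all genes tested -0.025. The summed fibroblast markers given above were lower in SRSF3-OE and SRSF2-OE than in 1xCtrl. They were also lower than the control in SRSF7-OE, 3xSR and MYC-OE, where the members' medians were 0.0067, 0.025 and -0.019. The part of these markers in the members' counts was not tested. In 43 members every SRSF3-OE library lay above every 1xCtrl library, against 20.6% of all genes tested. The 6 members not called were NOC2L, NOC4L, NHP2, BOP1, WDR12 and MYBBP1A, named here after their values were seen, with log2 fold changes from 0.053 (WDR12) to 0.43 (NOC2L).

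In the libraries labelled SRSF2-OE 28 members were called higher, against 11.6% of all genes tested, and only FBL was called lower, against 11.9%. The median was 0.26 (range -0.35 to 0.65), and 30 members lay above 1xCtrl without overlap, against 18.0% of all genes. In SRSF7-OE 6 members were called higher (background 9.03%) and 4 lower (8.26%), with a median of 0.0067 and a range of -0.23 to 0.60. The shares called higher and lower there were both near those of all genes. These 3 comparisons use the same 1xCtrl libraries.

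Leaving out 1 library at a time gave 34 to 46 members called higher in SRSF3-OE and 19 to 36 in the libraries labelled SRSF2-OE. Over all genes the shares called higher ranged from 9.63% to 16.3% and from 7.04% to 14.5%. Without 1xCtrl replicate 2 the counts were 46, 36 and, in SRSF7-OE, 15 higher and 8 lower. The shares of all genes were then 16.3%, 14.5%, 16.4% and 12.8% in the same order. Without 1xCtrl replicate 1 the counts were 34, 20 and, in SRSF7-OE, 0 higher and 4 lower, against 10.5%, 7.04%, 5.49% and 7.39% of all genes. The SRSF7-OE counts thus rest on which libraries are used. Without SRSF7-OE replicate 1, 2 or 3 the SRSF7-OE counts were 3, 1 and 0 higher and 3, 4 and 1 lower, and without 1xCtrl replicate 3 they were 3 and 4. In the same order, 6.44%, 5.57%, 5.4% and 7.03% of all genes were called higher and 7.76%, 7.18%, 5.33% and 7.37% lower. Scaling by total counts alone moved the median of all genes in SRSF3-OE from -0.0251 to -0.1365 and the calls over all genes from 3666 higher and 3442 lower to 2296 and 4862. The members then had 35 higher and 0 lower calls and a median of 0.34. In the libraries labelled SRSF2-OE the same scaling gave 2241 higher and 3860 lower calls over all genes, in place of 2823 and 2910, and 26 members higher. Upper-quartile scaling gave 2546 higher and 4047 lower calls over all genes in SRSF3-OE, with 37 members higher, and 1 higher and 4 lower members in SRSF7-OE. In SRSF7-OE 7.05% of all genes were then called higher and 9.33% lower.

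**Figure D2:**
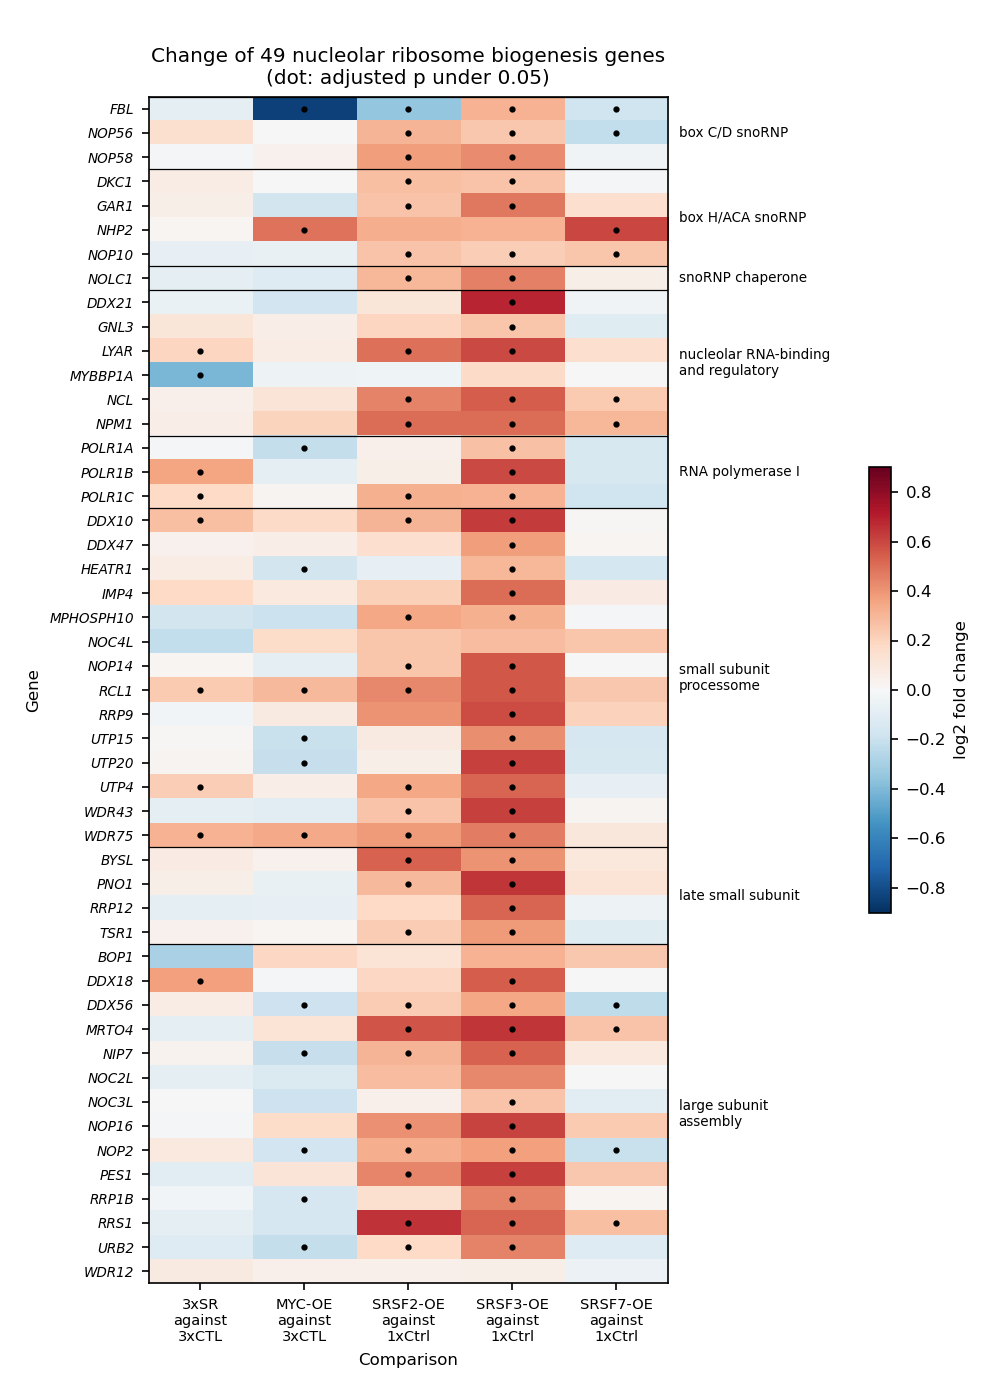
Log2 fold change of each member (rows, by role) in the 5 comparisons with a control (columns), red for higher and blue for lower, with a dot where the adjusted p was under 0.05. The SRSF3-OE column carries 43 dots on red, the SRSF2-OE column 28 on red and 1 on blue (FBL), and the 3xSR and MYC-OE columns mix both colours.

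In 3xSR and MYC-OE members were called in both directions, with medians near 0. In 3xSR 8 members were called higher (background 15.3% of 23160 genes) and 1 lower (13.7%), a share near that of all genes for the higher calls, with a median of 0.025. The 8 were DDX18, POLR1B, WDR75, DDX10, RCL1, UTP4, LYAR and POLR1C, and the lower one was MYBBP1A. In MYC-OE 3 members were called higher (NHP2, WDR75 and RCL1, background 18.0%) and 10 lower (background 17.3%), with a median of -0.019 and a range of -0.84 to 0.49. The share called lower was near that of all genes. Without overlap between libraries, 10 members lay above and 1 below 3xCTL in 3xSR, where 21.3% and 18.9% of all genes did. In MYC-OE 4 lay above and 13 below, against 24.2% in each direction over all genes, a share near that of the members below. Both comparisons use the same 3xCTL libraries.

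Compared directly, MYC-OE had 4 members called higher than 3xSR (background 17.3%) and 12 called lower (17.6%), with a median of -0.059. Without 3xCTL replicate 2 the calls were 11 higher and 6 lower in 3xSR and 7 higher and 10 lower in MYC-OE. The shares of all genes were then 19.4% and 19.1% in 3xSR and 19.4% and 18.2% in MYC-OE. Leaving out 3xCTL replicate 1 or 3 left 3 higher in 3xSR, against 11.2% and 11.6% of all genes. These were DDX18, POLR1B and WDR75, so the calls of DDX10, RCL1, UTP4, LYAR and POLR1C were lost. Leaving out any 3xSR library left 4 or 5 higher in 3xSR, against 11.3% to 12.4% of all genes. Leaving out any MYC-OE library left 4 or 5 lower in MYC-OE, against 13.5% to 14% of all genes. For MYC-OE against 3xSR, leaving out any of the 6 libraries left 2 or 3 higher and 7 to 11 lower. Over all genes 12.5% to 14.8% were then called higher and 12.9% to 14.1% lower. Upper-quartile scaling gave 4 higher and 6 lower members in MYC-OE, against 18.8% and 16.3% of all genes.

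The box C/D proteins carry the ribose methylation of ribosomal RNA, and FBL, the methyltransferase of the particle, fell in MYC-OE, where its partners NOP56 and NOP58 were not called. FBL (ENSG00000105202.9, chr19:39834458-39846414 on the minus strand, GRCh38) was at 164, 159 and 152 CPM in 3xCTL and 89.1, 89.1 and 87.5 in MYC-OE. All 3 MYC-OE libraries lay far below all 3 controls, with a log2 fold change of -0.84 ± 0.0474 (SE), adjusted p = 1.02e-07, the largest fall of any member in any comparison with a control. In 3xSR FBL was at 152, 145 and 152 CPM, overlapping 3xCTL (-0.084 ± 0.047 (SE), adjusted p = 0.207). In the second table FBL moved in both directions. It was at 139, 133 and 138 CPM in 1xCtrl, 112, 105 and 104 in those labelled SRSF2-OE, 173, 167 and 169 in SRSF3-OE and 113, 126 and 122 in SRSF7-OE, with no overlap between the control and any of the 3 groups. FBL fell in the libraries labelled SRSF2-OE (-0.35 ± 0.0569 (SE), adjusted p = 8.20e-04), rose in SRSF3-OE (0.31 ± 0.0568 (SE), adjusted p = 0.00105) and fell in SRSF7-OE (-0.18 ± 0.0568 (SE), adjusted p = 0.042), where the call was lost without SRSF7-OE replicate 1 or 3. After removal of the GC trend the fall in SRSF7-OE was -0.23 with a wider SE and was not called, and with total-count scaling the rise in SRSF3-OE was 0.20 and still called.

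NOP56 and NOP58 are the paired scaffold proteins of the same particle. NOP56 was at 443, 446 and 476 CPM in 1xCtrl, 529.6, 592 and 566 in those labelled SRSF2-OE, 521, 548 and 542 in SRSF3-OE and 389.8, 404 and 376 in SRSF7-OE. It rose in SRSF2-OE (0.31 ± 0.0597 (SE), adjusted p = 0.00248) and SRSF3-OE (0.24 ± 0.0596 (SE), adjusted p = 0.00843, lost without 1xCtrl replicate 1 or SRSF3-OE replicate 3 and with upper-quartile or total-count scaling) and fell in SRSF7-OE (-0.22 ± 0.0596 (SE), adjusted p = 0.0217). In the first table it was at 399, 439.7 and 399 CPM in 3xCTL, 430.0, 463 and 472 in 3xSR and 402, 408 and 434 in MYC-OE, with overlap and adjusted p of 0.0896 and 0.949. In 3xSR it was called without 3xCTL replicate 2 and after removal of the GC trend (0.25). NOP58 was at 108, 98.1 and 117 CPM in 1xCtrl, 139, 146 and 134 in those labelled SRSF2-OE, 149, 142 and 142 in SRSF3-OE and 104, 109 and 102 in SRSF7-OE, and at 117, 128 and 105 in 3xCTL, 125, 109 and 113 in 3xSR and 123, 115 and 121 in MYC-OE. It rose in SRSF3-OE (0.43 ± 0.0664 (SE), adjusted p = 3.51e-04) and in the libraries labelled SRSF2-OE (0.38 ± 0.0664 (SE), adjusted p = 0.00125), and was not called in the other comparisons with a control. NOP56 hosts several snoRNA genes, and its exons share 472 of 5398 bases with small RNA genes on the same strand, so a part of its counts could belong to either.

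The box H/ACA proteins carry pseudouridylation. DKC1 (dyskerin), the pseudouridine synthase, was at 159.8, 144 and 165 CPM in 1xCtrl, 191, 190.4 and 183 in those labelled SRSF2-OE and 188, 187 and 186 in SRSF3-OE. Both groups lay above the control without overlap (0.27 ± 0.0586 (SE), adjusted p = 0.005 and 0.26 ± 0.0586 (SE), adjusted p = 0.00456, the latter lost with upper-quartile scaling, while total-count scaling gave 0.15), whereas 3xSR (0.069), MYC-OE (-0.0010) and SRSF7-OE (-0.019) were not called. NHP2, a small core protein of the same particle, showed another order. It was at 25.99, 19.5 and 23.1 CPM in 3xCTL, 23.4, 22.1 and 23.8 in 3xSR and 30.4, 33.02 and 32.7 in MYC-OE. MYC-OE lay above both other groups without overlap (0.49 ± 0.089 (SE), adjusted p = 0.00115 against 3xCTL and 0.47 ± 0.0891 (SE), adjusted p = 0.00168 against 3xSR). In the second table NHP2 was at 17.3, 24.97 and 18.4 CPM in 1xCtrl and 28.8, 29.2 and 34.2 in SRSF7-OE, where it rose most of all members (0.60 ± 0.129 (SE), adjusted p = 0.00717). That call was lost without 1xCtrl replicate 1 or 3 or SRSF7-OE replicate 3, and 414 of the 1510 exon bases of NHP2 lie opposite RMND5B. In SRSF3-OE, NHP2 stood at 26.9, 22.8 and 25.7 CPM, overlapping 1xCtrl. Of the other core proteins, GAR1 and NOP10 were called higher in SRSF3-OE and in the libraries labelled SRSF2-OE. NOP10 was called in SRSF7-OE too, a call lost without 1xCtrl replicate 1 or SRSF7-OE replicate 3.

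NOLC1, the chaperone that shuttles with both kinds of snoRNP, was called higher in SRSF3-OE and in the libraries labelled SRSF2-OE, with log2 fold changes of 0.45 and 0.30, and in no comparison of the first table.

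**Figure D3:**
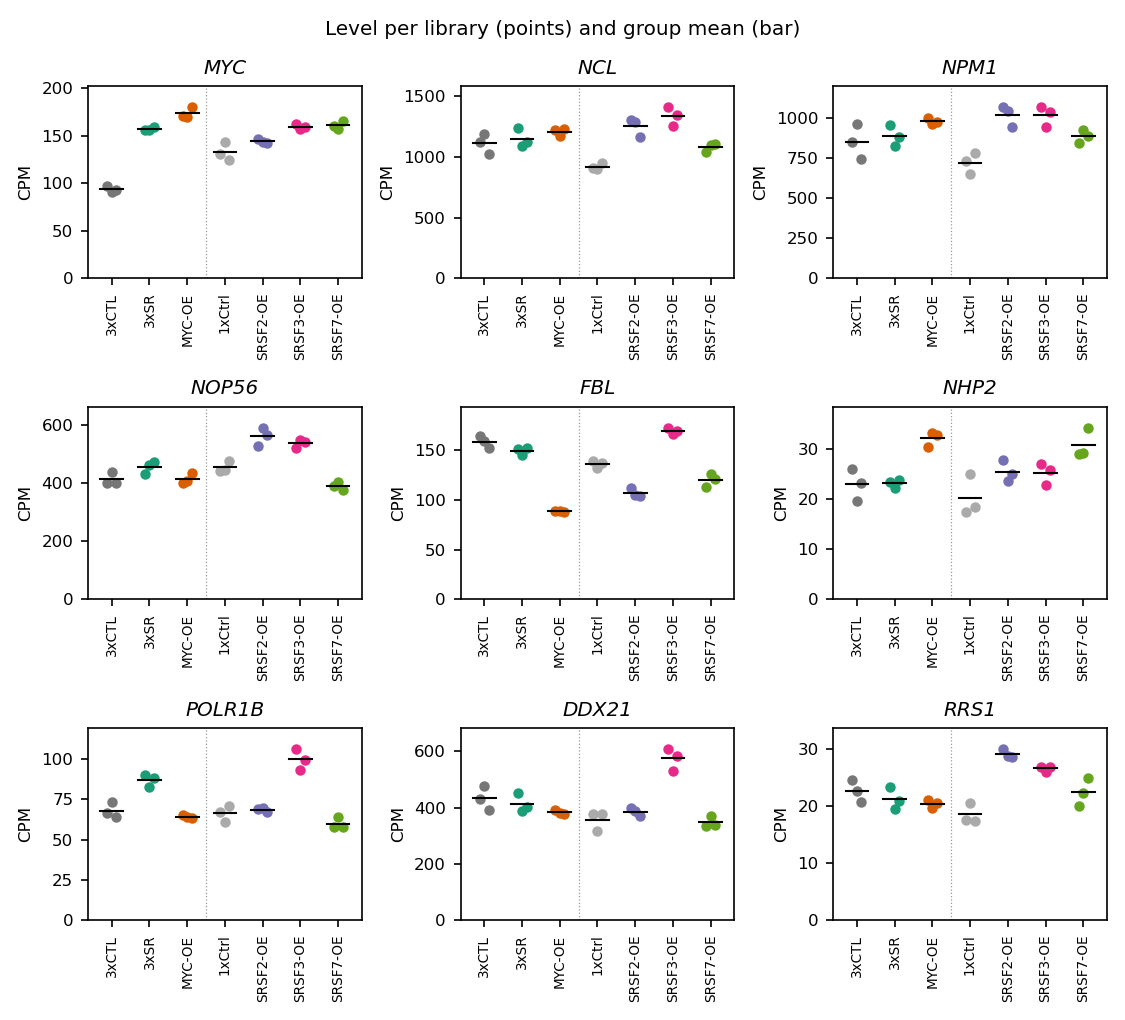
Level of MYC and of 8 members in each library (points, in CPM) with the mean of each group of 3 as a bar, the dotted line parting the 2 tables. FBL is lowest in MYC-OE (87.5 to 89.1 CPM), DDX21 and POLR1B are highest in SRSF3-OE, and NHP2 is high in MYC-OE and SRSF7-OE.

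Among the abundant nucleolar RNA-binding proteins, NCL and NPM1 rose in all 3 single-factor groups. NCL, which binds the precursor ribosomal RNA, was at 911, 898 and 950.2 CPM in 1xCtrl, 1303, 1291 and 1165 in those labelled SRSF2-OE, 1416, 1255 and 1349.9 in SRSF3-OE and 1042, 1099.9 and 1104 in SRSF7-OE. None of the 9 overlapped the control, and the log2 fold changes were 0.45 ± 0.066 (SE), adjusted p = 3.90e-04, 0.54 ± 0.066 (SE), adjusted p = 5.56e-05 and 0.23 ± 0.0659 (SE), adjusted p = 0.027. NPM1, a nucleolar chaperone, was at 730.3, 649 and 784 CPM in 1xCtrl, 1072, 1045 and 944 in those labelled SRSF2-OE, 1071, 947 and 1041 in SRSF3-OE and 845, 924 and 889 in SRSF7-OE. All were above the control, by 0.50, 0.50 and 0.30 on the log2 scale (adjusted p = 7.02e-04, 4.46e-04 and 0.0224). In SRSF7-OE both calls were lost with upper-quartile scaling, without 1xCtrl replicate 1 and without SRSF7-OE replicate 2 or 3, and that of NCL also without 1xCtrl replicate 3 or SRSF7-OE replicate 1.

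In the first table NCL and NPM1 were not called. NCL was at 1128, 1191 and 1022 CPM in 3xCTL, 1239.6, 1087 and 1125 in 3xSR and 1219, 1169 and 1230.0 in MYC-OE, with overlap throughout, and was called in MYC-OE without 3xCTL replicate 2 (0.17). NPM1 was at 853, 963 and 744 CPM in 3xCTL, 956, 824 and 882 in 3xSR and 1004, 962 and 975 in MYC-OE, also with overlap. Its 95% interval of the log2 fold change ran from -0.11 to 0.22 in 3xSR and from 0.035 to 0.36 in MYC-OE, where it was called without 3xCTL replicate 2 (0.30) and after removal of the GC trend (0.22). There are 45 named pseudogenes of NPM1, which together held 0.377% as many counts as the gene.

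DDX21, a nucleolar RNA helicase, had the largest rise of all members in SRSF3-OE. It was at 377, 315 and 379 CPM in 1xCtrl and 609, 530.3 and 584 in SRSF3-OE, without overlap (0.69 ± 0.0806 (SE), adjusted p = 4.28e-05), and in the libraries labelled SRSF2-OE at 399, 387 and 371 CPM, overlapping the control. LYAR, a nucleolar zinc-finger protein, was called higher in 3xSR (0.20, lost without 3xCTL replicate 1 or 3), the libraries labelled SRSF2-OE (0.50) and SRSF3-OE (0.59). GNL3 (nucleostemin) was called higher in SRSF3-OE (0.25). MYBBP1A, a nucleolar partner of MYB proteins, was the one member called lower in 3xSR (-0.41 ± 0.118 (SE), adjusted p = 0.0271). It was at 197, 136 and 179 CPM in 3xCTL, 124, 138 and 123 in 3xSR and 163, 157 and 176 in MYC-OE. The second control library overlapped 3xSR, the call was lost without 3xCTL replicate 1 or 3 or 3xSR replicate 1 or 3, and after removal of the GC trend the value was -0.21. In 1xCtrl MYBBP1A ran from 91.4 to 204 CPM, and it was not called in the second table. Against 3xSR, MYC-OE was higher (0.37 ± 0.118 (SE), adjusted p = 0.0372), a call lost without any 1 of the 6 libraries and with total-count scaling or no filter. After removal of the GC trend this value was 0.10 and not called.

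The subunits of RNA polymerase I followed different orders. POLR1A and POLR1B are the large catalytic subunits, and POLR1C is shared with RNA polymerase III. POLR1B was at 66.6, 73.00 and 64.3 CPM in 3xCTL, 90.1, 82.3 and 88.5 in 3xSR and 65.03, 64.2 and 63.6 in MYC-OE. It rose in 3xSR without overlap (0.36 ± 0.0579 (SE), adjusted p = 6.90e-04), was not called in MYC-OE (-0.080 ± 0.0579 (SE), adjusted p = 0.316), and was lower in MYC-OE than in 3xSR (-0.44 ± 0.0579 (SE), adjusted p = 1.60e-04). In the second table it was at 66.8, 61.1 and 70.8 CPM in 1xCtrl and 106, 93.3 and 99.5 in SRSF3-OE, a rise of 0.59 ± 0.07 (SE), adjusted p = 4.51e-05. SRSF7-OE, at 57.8, 63.8 and 58.1 CPM, overlapped the control, as did the libraries labelled SRSF2-OE, at 69.2, 69.5 and 66.96.

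POLR1A was at 45.5, 44.4 and 45.9 CPM in 3xCTL, 45.8, 43.8 and 44.5 in 3xSR and 39.1, 36.96 and 41.2 in MYC-OE. It fell in MYC-OE (-0.21 ± 0.0525 (SE), adjusted p = 0.00782) and lay close to the control in 3xSR (-0.018 ± 0.0525 (SE), adjusted p = 0.839). POLR1C was at 49.01, 53.7 and 47.6 CPM in 3xCTL, 55.4, 56.6 and 57.9 in 3xSR and 52.1, 50.7 and 49.9 in MYC-OE, and rose in 3xSR (0.18 ± 0.0544 (SE), adjusted p = 0.029), a call lost without 3xCTL replicate 1 or 3 or 3xSR replicate 2 or 3. All 3 subunits were lower in MYC-OE than in 3xSR, POLR1A with -0.19 ± 0.0525 (SE), adjusted p = 0.0136 (lost without MYC-OE replicate 2) and POLR1C with -0.15 ± 0.0544 (SE), adjusted p = 0.0447 (lost without any 1 of the 6 libraries). All 3 rose in SRSF3-OE, POLR1A at 44.7, 40.9 and 43.6 against 35.8, 37.5 and 34.5 CPM (0.26 ± 0.0642 (SE), adjusted p = 0.00752, lost with total-count scaling and without 1xCtrl replicate 1 or 3 or SRSF3-OE replicate 1 or 3) and POLR1C at 67.1, 70.5 and 64.4 against 55.2, 49.5 and 57.9 CPM (0.31 ± 0.0749 (SE), adjusted p = 0.00651, and 0.20 with total counts alone). In the libraries labelled SRSF2-OE only POLR1C rose, to 66.2, 68.4 and 68.2 CPM (0.32 ± 0.0749 (SE), adjusted p = 0.00758), and in SRSF7-OE none was called, with log2 fold changes of -0.14, -0.14 and -0.18 for POLR1A, POLR1B and POLR1C. In SRSF7-OE, POLR1B was called lower without 1xCtrl replicate 2 (-0.19), POLR1C without 1xCtrl replicate 2 or SRSF7-OE replicate 1 or 2 (-0.23 in the last), and POLR1A after removal of the GC trend (-0.15).

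Of the 14 small subunit processome genes, 13 were called higher in SRSF3-OE (median 0.51), 7 in the libraries labelled SRSF2-OE (0.25), 4 in 3xSR (0.032) and 0 in either direction in SRSF7-OE (0.012). In MYC-OE 2 were called higher and 3 lower. Over all genes the shares called higher were 15.0%, 11.6%, 15.3% and 18.0% in SRSF3-OE, SRSF2-OE, 3xSR and MYC-OE. The share called lower in MYC-OE was 17.3%, near that of these genes, and SRSF7-OE had 9.03% higher and 8.26% lower. WDR75, part of the complex that couples transcription of the precursor to its processing, was called higher in both groups of the first table. It was at 118, 143 and 115 CPM in 3xCTL, 164, 149 and 154 in 3xSR and 165, 156 and 155 in MYC-OE, with no overlap (0.32 ± 0.0765 (SE), adjusted p = 0.00875 in 3xSR and 0.34 ± 0.0764 (SE), adjusted p = 0.00431 in MYC-OE). After removal of the GC trend the value in 3xSR was 0.20 and still called. Of the other members of that complex, UTP15 and HEATR1 fell in MYC-OE, with log2 fold changes of -0.20 and -0.16, and UTP4 and WDR43 were not called, at 0.062 and -0.094.

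RCL1, a processome protein related to RNA cyclases, was the lowest member per kilobase and was called higher in 4 of the 5 comparisons with a control. Its call in 3xSR was lost without 3xCTL replicate 1 or 3. It was at 6.78, 7.17 and 6.75 CPM in 3xCTL, 8.14, 8.44 and 7.82 in 3xSR and 8.60, 8.53 and 8.21 in MYC-OE, with both groups above the control (0.24 ± 0.0731 (SE), adjusted p = 0.0295 in 3xSR and 0.29 ± 0.0729 (SE), adjusted p = 0.00809 in MYC-OE). In the second table RCL1 was at 5.72, 5.51 and 6.61 CPM in 1xCtrl, 8.09, 8.31 and 7.70 in those labelled SRSF2-OE, 8.93, 8.77 and 8.64 in SRSF3-OE and 7.04, 7.10 and 6.97 in SRSF7-OE. It rose in SRSF2-OE (0.43) and SRSF3-OE (0.56), and SRSF7-OE, at 0.24 ± 0.0852 (SE), adjusted p = 0.0687, did not pass the threshold although no library overlapped the control. The processome helicase DDX10 was called higher in 3xSR (0.27, lost without 3xCTL replicate 1 or 3), the libraries labelled SRSF2-OE (0.31) and SRSF3-OE (0.63). UTP20, a long scaffold protein, was called higher in SRSF3-OE (0.62) and lower in MYC-OE (-0.21).

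The 4 late small subunit factors were all called higher in SRSF3-OE, 3 of them in the libraries labelled SRSF2-OE and none in the other comparisons with a control. Of all genes, 15.0% were called higher in SRSF3-OE and 11.6% in SRSF2-OE. PNO1, which holds the end of the maturing small subunit RNA, was at 40.2, 36.04 and 41.8 CPM in 1xCtrl, 51.2, 49.9 and 43.6 in those labelled SRSF2-OE and 63.5, 59.7 and 60.99 in SRSF3-OE. Both groups lay above the control, SRSF3-OE by 0.64 ± 0.0751 (SE), adjusted p = 4.15e-05 and SRSF2-OE by 0.29 ± 0.0748 (SE), adjusted p = 0.0123. BYSL (bystin) was at 23.3, 24.6 and 23.7 CPM in 1xCtrl, 36.04, 33.3 and 34.1 in those labelled SRSF2-OE and 31.7, 31.6 and 31.8 in SRSF3-OE, with rises of 0.53 ± 0.0563 (SE), adjusted p = 3.43e-05 and 0.41 ± 0.0563 (SE), adjusted p = 1.46e-04. TSR1 was called in both groups (0.23 and 0.39) and RRP12 in SRSF3-OE alone (0.52, and 0.18 in the libraries labelled SRSF2-OE).

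Of the 14 large subunit factors, 11 were called higher in SRSF3-OE (median 0.45) and 8 in the libraries labelled SRSF2-OE (0.26), 1 was in 3xSR (-0.022), where 15.3% of all genes were, and 5 were called lower in MYC-OE (-0.14), where 17.3% of all genes were. In SRSF7-OE 2 were called higher and 2 lower (0.011), against 9.03% and 8.26% of all genes. The shares of all genes called higher in SRSF3-OE and SRSF2-OE were 15.0% and 11.6%. RRS1, which helps place the smallest ribosomal RNA of the large subunit, rose most of all members in the libraries labelled SRSF2-OE. It was at 17.6, 20.6 and 17.4 CPM in 1xCtrl, 30.1, 28.8 and 28.6 in SRSF2-OE, 26.9, 26.00 and 26.9 in SRSF3-OE and 19.9, 22.2 and 24.95 in SRSF7-OE. SRSF2-OE (0.65 ± 0.0867 (SE), adjusted p = 1.79e-04) and SRSF3-OE (0.52 ± 0.0866 (SE), adjusted p = 5.67e-04) lay above the control, and SRSF7-OE overlapped it (0.27 ± 0.0864 (SE), adjusted p = 0.0466, lost in 12 of its 17 alternatives). MRTO4, a nucleolar relative of a ribosomal stalk protein, was at 54.7, 62.5 and 63.05 CPM in 1xCtrl, 87.8, 94.8 and 83.7 in those labelled SRSF2-OE, 94.7, 87.8 and 99.4 in SRSF3-OE and 72.1, 73.8 and 68.95 in SRSF7-OE, above the control in every library (0.56 ± 0.0728 (SE), adjusted p = 1.45e-04, 0.65 ± 0.0728 (SE), adjusted p = 3.09e-05 and 0.25 ± 0.0726 (SE), adjusted p = 0.0294). Its call in SRSF7-OE was lost without 1xCtrl replicate 1 or SRSF7-OE replicate 3.

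DDX18, a helicase of large subunit assembly, had the largest rise of the members in 3xSR. It was at 122, 139 and 114 CPM in 3xCTL, 172, 153 and 160.4 in 3xSR and 128, 123 and 119 in MYC-OE. It rose in 3xSR without overlap (0.37 ± 0.072 (SE), adjusted p = 0.00234) and was lower in MYC-OE than in 3xSR (-0.39 ± 0.072 (SE), adjusted p = 0.00145). After removal of the GC trend these values were 0.23 and -0.22, both still called. NOP2, a methyltransferase of the large subunit RNA, and the helicase DDX56 fell in MYC-OE (log2 fold changes of -0.17 and -0.19, adjusted p = 0.0146 and 0.00805) and in SRSF7-OE (-0.20 and -0.23, adjusted p = 0.0175 and 0.0232). Both rose in SRSF3-OE (0.37 and 0.35). NOP2 was at 130.4, 133 and 127 CPM in 3xCTL and 114, 114 and 119 in MYC-OE, and at 124, 129 and 124 in 1xCtrl and 112, 112 and 103 in SRSF7-OE, with no overlap in either pair. DDX56 was at 88.4, 85.4 and 83.2 CPM in 3xCTL and 75.5, 73.7 and 76.4 in MYC-OE, and at 71.8, 81.9 and 71.5 in 1xCtrl and 65.4, 64.8 and 61.8 in SRSF7-OE, again with no overlap. In SRSF7-OE the call of NOP2 was lost without SRSF7-OE replicate 3 and that of DDX56 without any 1 of the SRSF7-OE libraries, and without 1xCtrl replicate 2 DDX56 was at -0.15 and still called. NOP2 shares 2550 of its 4687 exon bases with AC006064.6 on the same strand, so its counts could be split between both. On the same strand, 36.5% of the exon bases of DDX47 lie in APOLD1 too and 11.4% of those of RRS1 in AC009879.2. Opposite another gene lie 23.2% of those of HEATR1, 20.8% of TSR1, 20.2% of NIP7, 20.0% of NOP16, 18.2% of POLR1C, 17.1% of NOP14 and 10.4% of PNO1.

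URB2, a large subunit factor, fell in MYC-OE, from 55.2, 56.8 and 56.1 CPM in 3xCTL to 48.4, 46.2 and 50.6 (-0.21 ± 0.0643 (SE), adjusted p = 0.023), a call lost without 3xCTL replicate 3 or MYC-OE replicate 1 or 2. PES1, BOP1 and WDR12 form 1 complex, and their values differed within it. PES1 was at 90.8, 90.5 and 86.6 CPM in 3xSR and 103, 102 and 107 in MYC-OE, which lay above it (0.22 ± 0.0671 (SE), adjusted p = 0.026, lost without any 1 of the 6 libraries). After removal of the GC trend this value was 0.049. PES1 rose in SRSF3-OE by 0.61 ± 0.115 (SE), adjusted p = 0.00154. WDR12 was not called in any comparison, with 51.95, 46.4 and 54.9 CPM in 1xCtrl and 53.9, 54.4 and 50.6 in SRSF3-OE and a 95% interval of its log2 fold change there from -0.079 to 0.19, and BOP1 was not called in any either. Yet BOP1, at 79.7, 74.8 and 86.8 CPM in MYC-OE, lay above 3xSR, at 57.3, 62.7 and 53.4, without overlap, as PES1 did.

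Each group was compared with its own control, and the difference of these effects was tested in a joint fit of all 21 libraries and 25013 genes. Smaller or lower, and larger or higher, compare signed log2 fold changes, so a weaker fall counts as a higher effect. The effect of 3xSR was smaller than that of SRSF3-OE in 32 of the 49 members and larger in 0, where 7.02% and 10.8% of all genes were called. The median difference was -0.40 on the log2 scale (range -0.74 to 0.038), and that of all genes 0.042. The difference was -0.74 ± 0.114 (SE), adjusted p = 1.36e-04 for DDX21, -0.71 ± 0.0898 (SE), adjusted p = 1.70e-05 for MRTO4 and -0.57 ± 0.0953 (SE), adjusted p = 2.75e-04 for PNO1. It did not pass the threshold for POLR1B (-0.22 ± 0.0893 (SE), adjusted p = 0.0941), DDX18 (-0.16 ± 0.106 (SE), adjusted p = 0.338) and WDR75 (-0.13 ± 0.105 (SE), adjusted p = 0.453), which were the 3 largest rises of 3xSR. The 95% interval of the difference, not adjusted over genes, was -0.40 to -0.048 for POLR1B, -0.37 to 0.046 for DDX18 and -0.34 to 0.075 for WDR75. With total counts alone 24 members were called, and over all genes the calls went from 2698 higher and 1755 lower to 3557 and 1102. Upper-quartile scaling gave 26 members and 2933 and 1181 genes, and leaving out 1 library 27 to 36 members. With 1 library left out 5.53% to 11.2% of all genes were called lower. Removal of the GC trend gave 43 members and 3475 and 3638 genes.

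**Figure D4:**
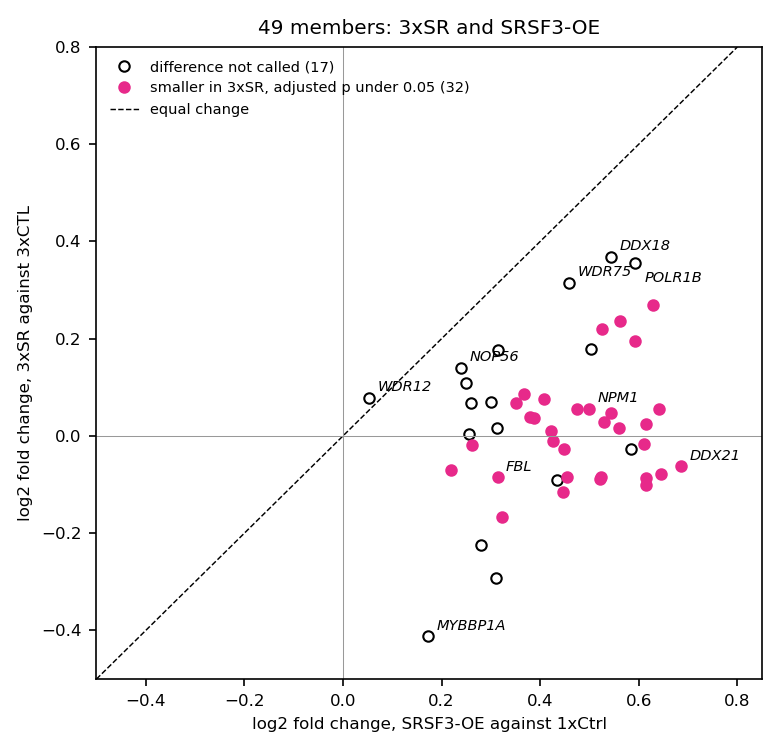
Log2 fold change of the 49 members in SRSF3-OE against 1xCtrl (x axis) and in 3xSR against 3xCTL (y axis), filled where the difference of the effects had an adjusted p under 0.05, with the dashed line of equal change. All but WDR12 lie below the line, 32 of them filled.

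Against the libraries labelled SRSF2-OE the signed effect of 3xSR was lower in 16 members (background 8.53%) and higher in 2 (13.3%), FBL and POLR1B, with a median difference of -0.22. FBL differed by 0.27 ± 0.0675 (SE), adjusted p = 0.00629, POLR1B by 0.31 ± 0.0894 (SE), adjusted p = 0.0151 and RRS1, at the other end, by -0.73 ± 0.125 (SE), adjusted p = 2.36e-04. FBL fell in the libraries labelled SRSF2-OE (-0.35) and was not called in 3xSR (-0.084). Its change was thus smaller in size in 3xSR. Only 1 member stayed higher without 3xCTL replicate 3, 3xSR replicate 1 or 3, 1xCtrl replicate 3 or SRSF2-OE replicate 3. In these fits 10.6% to 11% of all genes were called higher. Against SRSF7-OE the signed effect of 3xSR was higher in 7 members (background 13.6%) and lower in 4 (10.9%), with a median difference of 0.0023. Here POLR1B (0.50 ± 0.0894 (SE), adjusted p = 3.35e-04) and POLR1C (0.36 ± 0.0882 (SE), adjusted p = 0.00514) were among those with the higher effect in 3xSR, and NHP2 (-0.58 ± 0.177 (SE), adjusted p = 0.0222), MRTO4 (-0.33), NOP10 (-0.31) and RRS1 (-0.35) were the 4 with the lower one. Without 1xCtrl replicate 2 the counts against SRSF7-OE were 12 higher and 11 lower, where 16.5% and 17% of all genes were called. Only 2 were lower without 3xCTL replicate 1, 1xCtrl replicate 1 or 3 or SRSF7-OE replicate 3, where 8.71% to 10.6% of all genes were. The controls of the 2 tables are different libraries, and each effect carries the spread of its own control.

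Library by library, the members moved together in the groups with many calls. The median log2 ratio of the members to their mean in 1xCtrl was 0.48, 0.41 and 0.45 in the 3 SRSF3-OE libraries and 0.29, 0.27 and 0.23 in those labelled SRSF2-OE. In SRSF3-OE 49, 49 and 48 members lay above the mean of 1xCtrl, and in the libraries labelled SRSF2-OE 47, 45 and 45. Within the controls the same medians were 0.0012, 0.086 and -0.073 for 3xCTL and -0.0048, -0.057 and 0.077 for 1xCtrl, a spread as wide as the medians of 3xSR (0.059, -0.034 and 0.021) and MYC-OE (-0.032, -0.044 and -0.013). By transcript GC content, all 16 members with 45% to 55% GC, 17 of the 18 below that and 10 of the 15 above it were called higher in SRSF3-OE, where 15.0% of all genes were. The median standard error was 0.115 in the GC-rich class against 0.074 in the GC-poor one.

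**Figure D5:**
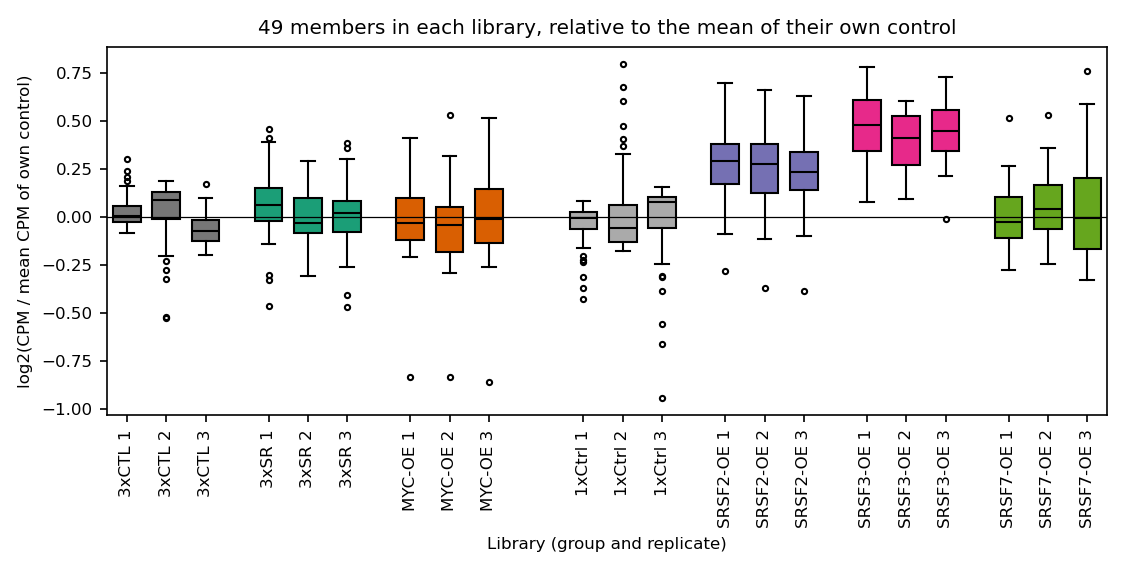
Log2 ratio of each member's CPM to the mean CPM of its own control, as 1 box per library (box, quartiles; line, median; whiskers, values within 1.5 times the box height; points, members beyond). The medians of the SRSF3-OE libraries lie at 0.41 to 0.48 and those of SRSF2-OE at 0.23 to 0.29, and the lone low point in MYC-OE is FBL.

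Other ribosome biogenesis genes were read from 5 lists of 110 genes, all of which were tested: other RNA polymerase I transcription factors and subunits (11), other small subunit processome genes (36), other large subunit factors (40), the RNA exosome and its cofactors (14) and snoRNP assembly factors (9). In SRSF3-OE 79 of the 110 were called higher and 0 lower (median 0.37), in the libraries labelled SRSF2-OE 47 and 0 (0.20) and in SRSF7-OE 8 and 6 (0.064). Over all genes the shares called higher and lower were 15.0% and 14.1%, 11.6% and 11.9%, and 9.03% and 8.26% in the same order. In 3xSR 19 were called higher and 5 lower (0.073), in MYC-OE 17 and 12 (0.042), and 19 were higher and 23 lower in MYC-OE than in 3xSR (-0.036). The shares over all genes were 15.3% and 13.7%, 18.0% and 17.3%, and 17.3% and 17.6%, and the higher counts in 3xSR and MYC-OE were near them.

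The highest genes called, 1 from each list, were in SRSF3-OE NIFK, a nucleolar partner of Ki-67 (0.85 ± 0.0805 (SE), adjusted p = 7.87e-06), NOB1, the nuclease of the last small subunit cut (0.72 ± 0.141 (SE), adjusted p = 0.00252), NUFIP1, a snoRNP assembly factor (0.63 ± 0.0722 (SE), adjusted p = 3.36e-05), POLR1G, a subunit of RNA polymerase I (0.63 ± 0.0891 (SE), adjusted p = 1.72e-04), and DIS3, a nuclease of the exosome (0.56 ± 0.0802 (SE), adjusted p = 1.89e-04). In the libraries labelled SRSF2-OE they were IMP3, which helps pair a snoRNA with the precursor (0.65 ± 0.0698 (SE), adjusted p = 3.70e-05), POLR1G (0.62 ± 0.0891 (SE), adjusted p = 3.16e-04), EIF6, which keeps the subunits apart (0.56 ± 0.0735 (SE), adjusted p = 1.67e-04), the exosome subunit EXOSC3 (0.49 ± 0.0732 (SE), adjusted p = 4.13e-04) and NUFIP1 (0.33 ± 0.0721 (SE), adjusted p = 0.005). In 3xSR they were NMD3, the export adaptor of the large subunit (0.58 ± 0.0623 (SE), adjusted p = 3.03e-05), MPHOSPH6, an exosome cofactor (0.43 ± 0.0594 (SE), adjusted p = 2.15e-04), POLR1F, a polymerase subunit (0.41 ± 0.0664 (SE), adjusted p = 7.14e-04), DIMT1, a small subunit RNA methyltransferase (0.25 ± 0.066 (SE), adjusted p = 0.0141), and RUVBL1, an ATPase of snoRNP assembly (0.22 ± 0.0607 (SE), adjusted p = 0.0186). In MYC-OE they were EIF6 (0.59 ± 0.0534 (SE), adjusted p = 5.31e-06), POLR1D, shared with RNA polymerase III (0.52 ± 0.056 (SE), adjusted p = 2.32e-05), TRMT112, a methyltransferase partner (0.39 ± 0.065 (SE), adjusted p = 5.89e-04), RUVBL1 (0.34 ± 0.0607 (SE), adjusted p = 8.73e-04) and MPHOSPH6 (0.31 ± 0.0593 (SE), adjusted p = 0.00156). The lowest genes called, 1 from each list with a lower call, were in 3xSR IMP3 (-0.39), EFL1 (-0.35) and UBTF, the factor that opens ribosomal DNA for the polymerase (-0.15). In MYC-OE they were PPAN (-0.47), NOP9 (-0.34), SHQ1 (-0.32), the exosome nuclease EXOSC10 (-0.31) and RRN3, which recruits the polymerase (-0.26). In SRSF7-OE the highest called were TRMT112 (0.60), TMA16 (0.40), POLR1D (0.35) and MPHOSPH6 (0.25), and the lowest called, 1 from each list, were NOM1 (-0.41), NOL9 (-0.40), TAF1D (-0.38) and EXOSC10 (-0.35).

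By the E-box described above, the 16 members with CACGTG in the promoter window and the 24 without it had overlapping ranges of change in the 5 comparisons with a control. In MYC-OE 1 of the 16 was called higher and 3 lower (median -0.054), and of the 24 there were 2 and 5 (0.021). In 3xSR the counts were 2 and 1 (median 0.01) with the letters and 5 and 0 (0.056) without. The shares of all genes called higher and lower were 18.0% and 17.3% in MYC-OE and 15.3% and 13.7% in 3xSR. In SRSF3-OE 15 of 16 and 20 of 24 were called higher, with medians of 0.54 and 0.40, and in the libraries labelled SRSF2-OE 10 of 16 and 13 of 24, with medians of 0.27 and 0.26. Of all genes, 15.0% and 11.6% were called higher in SRSF3-OE and SRSF2-OE. The 4 members with the letters before the start had medians of -0.0011 in MYC-OE and 0.51 in SRSF3-OE, too few to compare. These values are a description, with no test.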

How the data were processed

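Whole-number counts per gene in 21 polyA-selected, stranded, paired-end RNA-seq libraries of HCC1806 cells were deposited as 2 tables by the authors. Trimmomatic 0.39, STAR, StringTie 2.1.3b and GRCh38.p13 are listed in the submitters' processing notes, with no role or order. The counting tool, its strand setting, the annotation and whether a read pair counts once are not given in the sources used here, so reads of overlapping genes may be shared. Symbols came from a table of Ensembl identifiers. GENCODE release 29 (GRCh38), matched by identifier with 15 of the 49 members at the same version, gave gene positions, the length and GC content of transcripts, and exon overlaps. Groups and replicate numbers came from the titles. No column was left unused (0). Replicates of a group differed by more than sampling noise in each pair (the chi-square divided by its degrees of freedom was 15.87 to 275.1).

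The tests were those of edgeR 4.0.16 under R 4.3.3: filterByExpr (minimum count 10, minimum total 15), TMM scaling, robust glmQLFit and the two-sided quasi-likelihood F test, adjusted by Benjamini and Hochberg over all genes of a fit, threshold 0.05. Each table had 1 fit over its groups, and the differences of effects a joint fit. CPM use the TMM-scaled library size. The members and lists were chosen with earlier results of these data known. Values per library are given for MYC, NOP56, NOP58, FBL, DKC1, NCL, NPM1, POLR1A, POLR1B and POLR1C, and in each comparison for the 3 highest and 3 lowest members called. Of the other lists at most the highest and lowest called gene each is named. Other members named were chosen after their values were seen. Alternatives were RLE, upper-quartile and total-count scaling, no filter and a stricter one, DESeq2 1.42.0, limma-voom (limma 3.58.1), only the groups compared, removal of each library's GC trend (50 bins), the replicate number as a block, and each library left out. The deviations of libraries with the same number correlated by at most 0.034 in any pair, so the numbers were not taken to pair them. The code was tested on simulated data. Figures used matplotlib 3.10.9.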

Additional observations from a re-analysis of the deposited data

Results flagged for a closer look

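The effects in 3xSR and in the groups labelled for 1 splicing factor differed in some members by a test of the difference itself (edgeR, joint fit, adjusted p under 0.05 over 25013 genes). Against SRSF3-OE the effect of 3xSR was lower in 32 members, against 7.02% of all genes. Against the libraries labelled SRSF2-OE it was lower in 16 members and higher in 2 (FBL and POLR1B), against 8.53% and 13.3% of all genes. Against SRSF7-OE it was lower in 4 and higher in 7, against 10.9% and 13.6% of all genes, shares near those of the members. FBL showed it in both directions, with 0.27 against SRSF2-OE and -0.38 against SRSF3-OE on the log2 scale. Each effect is relative to its own control, and the members' median log2 ratio of 1xCtrl to 3xCTL was -0.19. The part of this gap in the differences was not tested. Groups of 3 are too small for a check of single outlying libraries.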

How the results depend on the processing

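The 43 higher calls in SRSF3-OE (34 to 48 over its alternatives), the 28 in the libraries labelled SRSF2-OE (19 to 38) and the 32 smaller effects of 3xSR against SRSF3-OE (23 to 43) stayed within 1.5 times. Of the 57 called values of named genes, 21 lost the call in at least 1 alternative, 19 of them with a library left out. The cause of the changes below was not tested.

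With the GC trend removed, the calls were 14 higher and 5 lower in 3xSR, 7 higher in MYC-OE, 7 higher in MYC-OE against 3xSR, 12 higher in SRSF7-OE, 26 lower for 3xSR minus SRSF2-OE and 8 lower for 3xSR minus SRSF7-OE. The shares of all genes were then 17.3% and 16%, 22.2%, 19.1%, 15.2%, 13.2% and 15.7% in the same order. With the replicate block as well the calls were 14 and 6 in 3xSR, 7 higher and 16 lower in MYC-OE, 10 higher in SRSF7-OE, and 1 higher (minus SRSF2-OE) and 7 lower (minus SRSF7-OE) for the differences. Here the shares of all genes were 17.4% and 16.2%, 22.3% and 21.3%, 14.3%, 14.7% and 15.1%. Same-numbered libraries were not paired by the labels or the data (mean correlations from -0.107 to 0.0118), and the replicate block alone gave 0 lower in 3xSR and 2 higher in SRSF7-OE, and took the call from 6 named values and gave it to 0. With the block alone 12.1% of all genes were called lower in 3xSR and 7.45% higher in SRSF7-OE. With only the groups compared, the calls were 4 higher and 0 lower in 3xSR, 8 higher in MYC-OE against 3xSR, 0 higher and 0 lower in SRSF7-OE and 2 lower for 3xSR minus SRSF7-OE. The shares of all genes were then 13.3% and 11.4%, 22.6%, 4.95% and 4.81%, and 9.17% in the same order. Upper-quartile scaling gave 6 lower in MYC-OE and 1 higher in SRSF7-OE, no filter 6 lower in MYC-OE, and DESeq2 7 higher in MYC-OE against 3xSR. Over all genes these shares were 16.3%, 7.05%, 9.81% and 19.2% in the same order. Reading only the bases before the start took the members' share with CACGTG from 40.0% to 10%.

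With 1 library left out, the calls ranged from 3 to 11 higher and 0 to 6 lower in 3xSR, 3 to 7 and 4 to 12 in MYC-OE, 2 to 3 and 7 to 11 in MYC-OE against 3xSR, 0 to 15 and 1 to 8 in SRSF7-OE, 1 to 2 higher for 3xSR minus SRSF2-OE, and 5 to 12 and 2 to 11 for 3xSR minus SRSF7-OE. The shares of all genes moved too. They ranged from 11.2% to 19.4% higher and 9.22% to 19.1% lower in 3xSR. In SRSF7-OE they ranged from 5.4% to 16.4% and from 5.33% to 12.8%. MYC-OE had 14.1% to 19.4% higher and 13.5% to 18.2% lower, and MYC-OE against 3xSR 12.5% to 14.8% and 12.9% to 14.1%. For 3xSR minus SRSF2-OE 10.1% to 15.9% were higher. For 3xSR minus SRSF7-OE 9.77% to 16.5% were higher and 8.71% to 17% lower.

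No called value changed sign, and 13 values that were not called did, all near 0 on the log2 scale. With the GC trend removed (and with the block as well) the 3xSR value was 0.061 (0.064) for FBL, -0.023 (-0.022) for NPM1 and 0.011 (0.011) for POLR1A, the MYC-OE value -0.035 (-0.032) for NOP56, and the SRSF7-OE value 0.014 (0.014) for NOP58 and 0.0057 (0.0059) for DKC1. With total counts alone it was -0.027 for NOP56 and -0.011 for POLR1C in MYC-OE, and -0.012 for POLR1A and -0.0078 for POLR1B in the libraries labelled SRSF2-OE. With only the groups compared NOP56 in MYC-OE was -0.00053. DKC1 in MYC-OE was -0.0010 and turned to 0.0065 (RLE), 0.013 (upper quartile), 0.0032 (no filter), 0.0017 (10 counts in every library), 0.0065 (DESeq2), 0.0014 (limma-voom) and 0.00026 (replicate block). With 1 library left out the 3xSR values ranged from -0.087 to 0.063 (NOP58), -0.018 to 0.10 (NCL) and -0.040 to 0.15 (NPM1), those of MYC-OE from -0.027 to 0.055 (NOP56), -0.028 to 0.11 (NOP58), -0.056 to 0.050 (DKC1) and -0.0092 to 0.075 (POLR1C), those of SRSF2-OE from -0.025 to 0.073 (POLR1A) and -0.011 to 0.059 (POLR1B), and that of NOP58 in SRSF7-OE from -0.080 to 0.0028. What depth limits was not tested. All 49 members passed the filter on low counts.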

Other observations

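Across the 49 members the log2 fold change ran with transcript length in some comparisons: the Spearman correlation was -0.489 in the libraries labelled SRSF2-OE, -0.48 in SRSF7-OE and -0.377 in MYC-OE, and 0.0593 in SRSF3-OE and -0.0096 in 3xSR. Over all genes with a length it was -0.113, 0.0162, -0.0191, 0.0575 and 0.0575. With transcript GC content the members' correlation was -0.404 in 3xSR (-0.313 over all genes) and between -0.152 and 0.195 in the other comparisons with a control. These are correlations across genes of the same libraries, not over replicates, and are given as a description.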
